A study of Mus musculus with 11 samples.

Results

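The immunoglobulin genes and the genes that carry IgA into secretions were followed through RNA-seq of mouse inguinal mammary glands. The members were taken by symbol: every heavy (Ighv), kappa (Igkv) and lambda (Iglv) variable gene, the heavy chain constant genes Ighm, Ighd, Igha, Ighe, Ighg1, Ighg2b, Ighg2c and Ighg3, the light chain constant genes Igkc and Iglc1 to Iglc3, and Jchain, Pigr and Mzb1. This gave 233 of the 22196 genes in the tables: 115 Ighv, 100 Igkv and 3 Iglv genes, 8 heavy and 4 light chain constant genes, and 3 transport genes. At least 1 read was assigned to 219 of them, and 158 passed the filter on low counts. The filter removes genes that are low in most libraries, so the 158 are not a sample of all 233.

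The series compared 6 Knockout with 5 Wild-Type libraries. Knockout glands carried Tsc1-fl/fl with the Adipoq-Cre-Tg/+ transgene, so that the Adipoq promoter, active in adipocytes, drives the Cre recombinase that deletes Tsc1, an inhibitor of the kinase complex mTORC1. Wild-Type glands were Tsc1-fl/fl; Adipoq-Cre-+/+, so both groups carried the floxed alleles and, per the labels, the transgene differed. All animals ate a normal chow diet, and the glands were taken 16 days after delivery and also labelled PND16.5 (postnatal day). The labels do not say whether a gland came from a nursing mother, and they do not tie replicate numbers to litters or days, so p-values measure the spread between these libraries. The libraries held 25817975 to 37894237 reads. Tsc1 itself was at 12.2, 9.77, 10.7, 11.5 and 9.55 CPM in Wild-Type 1 to 5 and at 8.31, 10.1 and 11.9 CPM as the lowest, median and highest in Knockout (log2 fold change -0.087 ± 0.11, adjusted p = 0.772, edgeR). Its bulk level therefore did not separate the groups, and the genotypes rest on the labels. The 8 adipocyte markers, Adipoq among them, summed to between 1155 and 1694 CPM in Knockout libraries and between 697 and 1019 CPM in Wild-Type libraries, without overlap, with 0 of 8 past the adjusted threshold in edgeR. DESeq2 called 2 of them, Cfd (adjusted p = 0.00494) and Fabp4 (adjusted p = 0.0399), both higher in Knockout, against 1.09% of all genes it tested. The part of this in the values of the members was not tested.

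IgA is the antibody class of secretions. Plasma cells in the gland join IgA monomers with the J chain (Jchain), with Mzb1 as a helper of antibody assembly in their endoplasmic reticulum, and epithelial cells carry the resulting polymer into milk on the polymeric immunoglobulin receptor (Pigr). Naive B cells instead make IgM and IgD (Ighm and Ighd) in a membrane form, and the membrane and secreted forms of a heavy chain come from alternative ends of the same transcript.

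The sequences that carry the class and variable gene results are shown first, 5′ to 3′, read from GENCODE release M21 transcripts (genome build GRCm38). The ends of Igha (chromosome 12, 113254830 to 113260236, minus strand) and Ighm (chromosome 12, 113418558 to 113422730, minus strand) show what separated secreted from membrane transcripts: the lower-case bases are common to both forms, and the capitals are the end found in one form alone.
Igha secreted end: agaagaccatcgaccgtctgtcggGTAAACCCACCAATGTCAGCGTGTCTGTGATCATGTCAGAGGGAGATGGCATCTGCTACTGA
Igha membrane end: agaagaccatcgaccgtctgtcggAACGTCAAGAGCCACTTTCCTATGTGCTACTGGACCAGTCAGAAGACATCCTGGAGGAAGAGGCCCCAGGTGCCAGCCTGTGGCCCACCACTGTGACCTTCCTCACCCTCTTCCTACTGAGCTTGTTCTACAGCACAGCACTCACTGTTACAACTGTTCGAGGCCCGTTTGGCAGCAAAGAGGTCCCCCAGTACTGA
Ighm secreted end: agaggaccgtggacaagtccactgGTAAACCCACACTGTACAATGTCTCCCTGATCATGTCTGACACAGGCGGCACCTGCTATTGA
Ighm membrane end: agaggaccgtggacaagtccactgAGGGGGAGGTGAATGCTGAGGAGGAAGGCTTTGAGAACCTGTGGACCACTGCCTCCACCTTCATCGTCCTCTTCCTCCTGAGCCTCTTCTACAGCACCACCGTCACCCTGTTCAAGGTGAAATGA

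For the variable genes, what limits the data is how much of a gene's sequence is its own. The last 300 bases of the coding sequence are given for Ighv1-81 (chromosome 12, 115920279 to 115920712), Ighv1-26 (chromosome 12, 114788372 to 114788805), Ighv3-6 (chromosome 12, 114288152 to 114288582) and Igkv5-43 (chromosome 6, 69823355 to 69823943), all on the minus strand. Capitals mark bases inside at least 1 stretch of 31 bases that occurs in no other gene of the tables.
Ighv1-81: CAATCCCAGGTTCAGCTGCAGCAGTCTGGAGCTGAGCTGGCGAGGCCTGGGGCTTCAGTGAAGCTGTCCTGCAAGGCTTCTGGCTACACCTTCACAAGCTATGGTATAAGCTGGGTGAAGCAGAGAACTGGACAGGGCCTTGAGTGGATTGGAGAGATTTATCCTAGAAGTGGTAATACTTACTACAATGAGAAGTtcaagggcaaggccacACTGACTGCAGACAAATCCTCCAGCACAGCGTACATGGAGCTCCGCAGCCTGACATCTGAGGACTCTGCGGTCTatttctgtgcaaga
Ighv1-26: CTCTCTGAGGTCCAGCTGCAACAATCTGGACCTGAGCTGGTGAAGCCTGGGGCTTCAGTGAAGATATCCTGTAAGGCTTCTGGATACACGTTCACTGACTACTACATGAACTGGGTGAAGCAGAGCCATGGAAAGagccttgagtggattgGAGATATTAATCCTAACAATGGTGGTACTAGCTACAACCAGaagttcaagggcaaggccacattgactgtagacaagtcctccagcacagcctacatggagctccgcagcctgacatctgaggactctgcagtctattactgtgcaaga
Ighv3-6: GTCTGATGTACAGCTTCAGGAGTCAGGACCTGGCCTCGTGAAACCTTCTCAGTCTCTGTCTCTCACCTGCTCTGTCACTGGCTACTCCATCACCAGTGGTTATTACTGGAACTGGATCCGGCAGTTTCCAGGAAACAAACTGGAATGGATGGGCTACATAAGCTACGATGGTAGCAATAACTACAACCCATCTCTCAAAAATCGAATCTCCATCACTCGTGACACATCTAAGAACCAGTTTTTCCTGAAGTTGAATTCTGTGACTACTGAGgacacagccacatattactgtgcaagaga
Igkv5-43: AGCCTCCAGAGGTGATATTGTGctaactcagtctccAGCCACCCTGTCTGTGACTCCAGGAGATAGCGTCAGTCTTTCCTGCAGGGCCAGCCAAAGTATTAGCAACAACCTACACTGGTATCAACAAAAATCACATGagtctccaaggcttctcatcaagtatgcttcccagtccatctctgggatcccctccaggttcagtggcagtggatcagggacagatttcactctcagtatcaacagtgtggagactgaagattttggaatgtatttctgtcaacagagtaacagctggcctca

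Of the 31-base stretches of Ighv1-81, 40.2% also occurred in another gene, and the share was 61.7% for Ighv1-26 and 10.6% for Ighv3-6. For Igkv5-43 it was 65.3%, and all 207 of its shared stretches occurred in Igkv5-45. The median share was 41.9% over the 115 Ighv genes and 44.1% over the 100 Igkv genes. Reads of V genes can therefore be split between near copies, and the value of a single V gene is uncertain. None of the stretches of Igha, Ighm, Ighd, Igkc or Jchain were shared.

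Immunoglobulin RNA was mostly IgA in every library, and its level varied widely between libraries of the same genotype. The immunoglobulin genes together ran from 522 CPM (Knockout 5) to 6469 CPM (Wild-Type 5), a 12.4-fold range. CPM stands for reads per 1000000, with library sizes adjusted by the TMM method of edgeR. In percent of all reads this was 0.0528% to 0.616%.

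Igha, the IgA heavy chain, had 1527, 2673, 1332, 1592 and 4221 CPM in Wild-Type 1 to 5. In Knockout its lowest level was 343, its median 2024 and its highest 2690 CPM. Knockout 5 stood far below the other libraries, and the groups otherwise overlapped. The log2 fold change of Knockout over Wild-Type was -0.34 ± 0.47 (SE; n = 6 and 5), with an adjusted p of 0.805 in edgeR's quasi-likelihood test, and it was 0.0087 without Wild-Type 5. In bulk tissue, fewer plasma cells and less RNA per cell cannot be told apart.

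Igkc, the kappa light chain constant gene, was likewise highest in Wild-Type 5 and lowest in Knockout 5, with 338, 743, 290.3, 346 and 931 CPM in Wild-Type and 76.6, 426 and 601 CPM as the lowest, median and highest Knockout values. Its log2 fold change was -0.47 ± 0.49 (adjusted p = 0.731, edgeR), -0.25 without Knockout 5, -0.16 without Wild-Type 5 and 0.24 without Wild-Type 2 and Wild-Type 5. The lambda constant genes had fold changes of -0.33 (Iglc1), -0.80 (Iglc2) and -0.92 (Iglc3), with Iglc3 at an adjusted p of 0.426. Iglc1 was at -0.68 without Knockout 2, -0.15 without Knockout 3, -0.10 without Knockout 5 and -0.16 without Wild-Type 5. Iglc2 was at -0.38 without Wild-Type 2 and -0.42 without Wild-Type 5. Without both of these Wild-Type libraries the 3 genes were at 0.055, 0.66 and -0.16. Iglc2 and Iglc3 share 31-base stretches with each other, so their reads are not cleanly separate.

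Jchain had 100.1, 218, 91.8, 118 and 338 CPM in Wild-Type. In Knockout its lowest, median and highest levels were 21.9, 151 and 218 CPM. The low library was again Knockout 5. Jchain followed Igha closely across the 11 libraries (Pearson r = 0.997 on log2(CPM + 1), permutation p = 1e-05, which is the smallest that 100000 permutations can give; Spearman rho = 0.982, p = 1e-05; adjusted p = 6e-05 and 6e-05 over 6 relations). Without Knockout 5 and Wild-Type 5 the correlation was 0.991. Per 100 Igha TPM (TPM is an abundance per length that sums to the same total in each library) there were 28.6 to 35.9 Jchain TPM, a narrow range beside the 12.4-fold range of all immunoglobulin RNA. Mzb1 was at 2.98, 11.03, 2.01, 3.13 and 10.8 CPM in Wild-Type and at 0.918, 3.82 and 7.06 CPM as the lowest, median and highest in Knockout, and its correlation with Igha was r = 0.882 (permutation p = 2e-05; rho = 0.936, p = 0.00013; adjusted p = 6e-05 and 0.00026). Without Knockout 5 and Wild-Type 5 it was 0.878.

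Pigr did not follow Igha. Its levels were 2764, 2309, 2992, 3158 and 2643 CPM in Wild-Type and 2785, 3108 and 3699 CPM as the lowest, median and highest in Knockout, a range of 1.602-fold over all 11 libraries. The log2 fold change was 0.19 ± 0.10 (adjusted p = 0.481, edgeR), and 0.090 without Wild-Type 2 and Wild-Type 5. Its correlation with Igha was r = -0.193 (permutation p = 0.555; rho = -0.336, p = 0.314; adjusted p = 0.555 and 0.314), and -0.317 without Knockout 5 and Wild-Type 5. Within the 6 Knockout libraries it was 0.241. Pigr TPM per Igha TPM was 0.243 in Wild-Type 5 and 3.32 in Knockout 5.

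**Figure D1:**
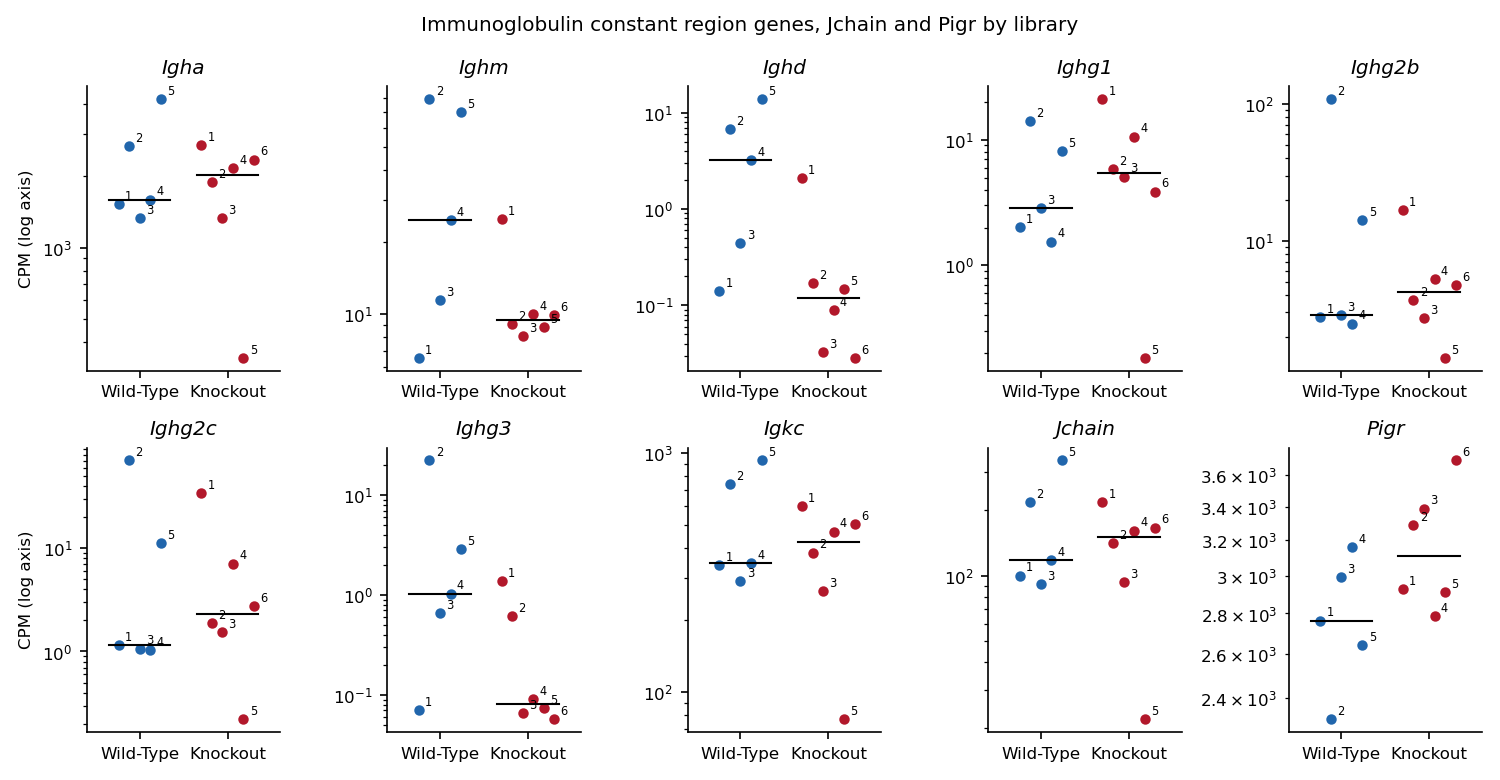
CPM of 8 immunoglobulin constant genes, Jchain and Pigr on log axes in the 5 Wild-Type (blue) and 6 Knockout (red) libraries, each point labelled with its replicate number and the black line at the group median. Knockout 5 lies lowest for Igha (343 CPM), and Ighm and Ighd are highest in Wild-Type 2 and Wild-Type 5, whereas Pigr varies little.

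Ighg3, Ighd, Ighg2b and Ighm had the lowest fold changes of the constant genes, and none passed the adjusted threshold. Ighm had 6.55, 79.2, 11.5, 24.8 and 70.0 CPM in Wild-Type. Its lowest, median and highest Knockout levels were 8.06, 9.47 and 24.8 CPM. The high libraries were Wild-Type 2, 4 and 5 and Knockout 1, and the groups overlapped. The log2 fold change was -1.69 ± 0.63 (adjusted p = 0.346, edgeR), and -0.27 without Wild-Type 2 and Wild-Type 5.

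Ighd had 0.140, 6.77, 0.440, 3.19 and 13.9 CPM in Wild-Type and 0.0285, 0.119 and 2.11 CPM as the lowest, median and highest in Knockout. The highest Knockout value was Knockout 1, and the lowest library held 1 read. The log2 fold change was -3.36 ± 1.24 (adjusted p = 0.341, edgeR), and -1.46 without Wild-Type 2 and Wild-Type 5. Ighd was 0.712 to 39.9 TPM per 100 Ighm TPM, highest in Wild-Type 5.

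The IgG genes differed in direction. Ighg3 had 0.0700, 22.2, 0.660, 1.03 and 2.88 CPM in Wild-Type and 0.0569, 0.0818 and 1.38 CPM as the lowest, median and highest in Knockout (log2 fold change -3.70 ± 1.32, adjusted p = 0.333, edgeR). Its fold change was -1.53 without Wild-Type 2 and -0.58 without Wild-Type 2 and Wild-Type 5. Ighg2b had 108.8 CPM in Wild-Type 2 and 2.49 to 14.2 CPM in the other Wild-Type libraries, with a log2 fold change of -2.15 ± 1.12 (adjusted p = 0.473) that was 0.066 without Wild-Type 2. Ighg2c, at 70.2 CPM in Wild-Type 2, had a fold change of -1.05 ± 1.38 (adjusted p = 0.795) that was 1.17 without Wild-Type 2. Ighg1 had a fold change of 0.46 ± 0.86 (adjusted p = 0.860), which was -0.14 without Knockout 1. Ighg2b and Ighg2c share 19.4% and 15.1% of their 31-base stretches with other genes. Ighe had 0 to 5 reads in a library and was not tested.

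Of the 158 members tested, 0 passed an adjusted p of 0.05 in edgeR's quasi-likelihood test, where 7 of 12716 genes passed (0.055%). DESeq2 also called 0 of the 173 members to which it gave an adjusted p, against 1.09% of the genes it tested. At an unadjusted p under 0.05, 16 members (10.1%) lay lower and 0 higher in Knockout: over all genes 12.4% had such a p, 6.08% lower and 6.31% higher. With no filter, 21 of 219 members lay lower and 0 higher, where 10.8% of all genes had such a p. With the filter, the members' counts were 8 lower and 0 higher without Wild-Type 5, and 4 lower and 5 higher without Wild-Type 2 and Wild-Type 5. The groups did not overlap for 0 of the 158 members, against 1.32% of all genes. The smallest unadjusted p was that of Igkv4-70 (0.00575), with a log2 fold change of -1.33 ± 0.40 and an adjusted p of 0.274.

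Fold changes lay below 0 for 124 of the 158 members (78.5%), against 51.7% of all genes, and their median was -0.54, against -0.0076 over all genes. These 158 passed the filter, which a gene can pass through 1 group alone. With no filter, 169 of 219 members (77.2%) lay below 0, with a median of -0.53. Among the 158, the count was 57 of 71 Ighv genes, 52 of 70 Igkv genes, 3 of 3 Iglv genes, 6 of 7 heavy and 4 of 4 light constant genes, and 2 of 3 transport genes. Leaving out 1 library at a time, between 55.6% (without Wild-Type 5) and 86.3% (without Knockout 1) of the members tested lay below 0, and the median reached -0.14 without Wild-Type 5. Without Wild-Type 2 and Wild-Type 5, 51 of the same 158 genes (32.3%) lay below 0, with a median of 0.52. These 2 libraries were chosen after the data were seen, as those with the highest summed B cell markers, and they hold the highest immunoglobulin levels of their group, so the upward move of the median follows from that choice and only shows what the direction rests on.

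**Figure D2:**
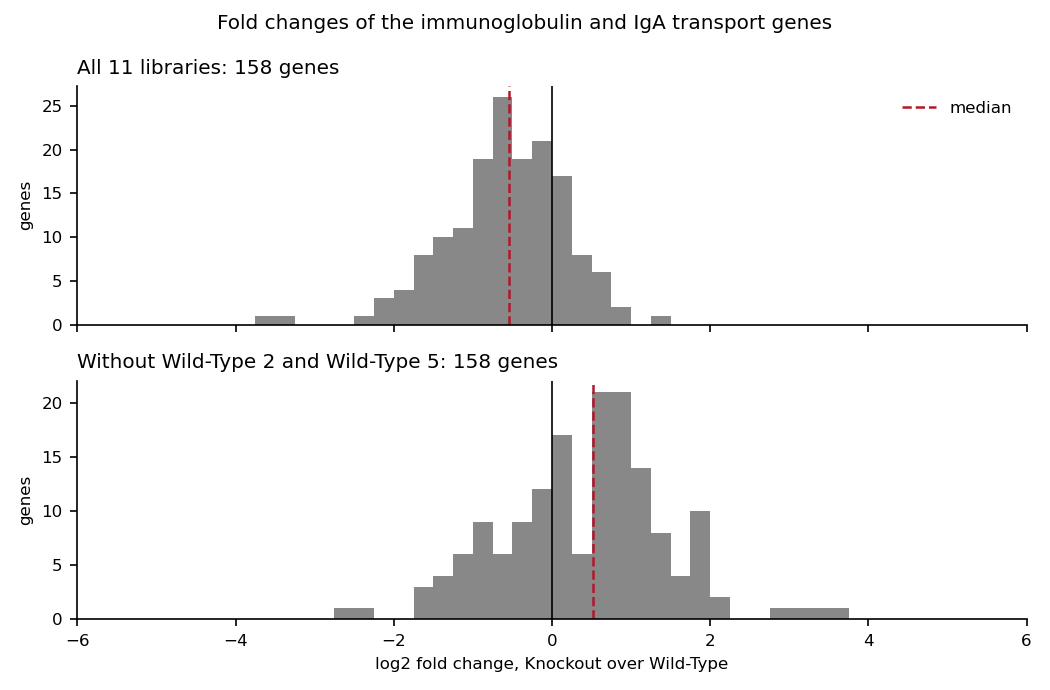
Number of members by log2 fold change of Knockout over Wild-Type (edgeR), with all 11 libraries above and without Wild-Type 2 and Wild-Type 5 below; the dashed line is the median. The median of the 158 genes is -0.54 above and 0.52 below.

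Markers of B cells moved with Ighm. The 12 B cell markers (among them Cd79a, Cd79b, Ms4a1 and Cd22) summed to 2.35, 71.3, 5.37, 23.2 and 98.0 CPM in Wild-Type 1 to 5, and the Knockout sums lay between 1.06 and 18.1 CPM, with Knockout 1 at the top. Of the 12 markers 5 passed the filter on low counts and 0 the adjusted threshold in edgeR. All 5 had an unadjusted p under 0.05, against 12.4% of all genes. A gene can pass this filter through 1 group alone, so that count is not read as a result, and the direction of those 5 is not counted here. The correlation of the sum with Ighm was r = 0.978 (permutation p = 3e-05; rho = 0.945, p = 3e-05; adjusted p = 6e-05 and 9e-05), and 0.950 without Wild-Type 2 and Wild-Type 5. Within the 6 Knockout libraries it was 0.965, a value that rests on Knockout 1, which stood far above the other Knockout libraries in both. No value was computed within the 5 Wild-Type libraries. With Igha the sum had r = 0.652 (permutation p = 0.0233; rho = 0.764, p = 0.00879; adjusted p = 0.028 and 0.0132), 0.469 without the same 2 libraries and 0.638 within Knockout. With the summed IgG genes it was r = 0.722 (permutation p = 0.0119; rho = 0.645, p = 0.0366; adjusted p = 0.0179 and 0.0439), 0.480 without them and 0.922 within Knockout.

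Summed T cell markers lay between 2.80 and 44.3 CPM in Wild-Type libraries and between 4.40 and 13.5 CPM in Knockout libraries, with Wild-Type 5, Wild-Type 2, Knockout 1 and Wild-Type 4 the highest in that order. Ccl21a, a chemokine of lymph node stroma and the gene of that list with the smallest p, had 0.105, 14.1, 0.346, 4.77 and 22.5 CPM in Wild-Type; its Knockout values were between 0 and 2.66 CPM, highest in Knockout 1. The same 4 libraries were thus high for Ighm, B cell markers, T cell markers and Ccl21a. Ccl21a does not stand for its whole list. Madcam1, also of that list, had a log2 fold change of -0.084, which ran from -0.24 to 0.19 when 1 library was left out. The 6 lymph node stroma markers in the tables summed to 50.5, 48.7 and 32.6 CPM in Wild-Type 5, 2 and 4, and Knockout 5 (31.4 CPM) lay above Knockout 1 (29.5 CPM). The part of these cells in the fold changes of Ighm, Ighd and Ighg3 was not tested.

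**Figure D3:**
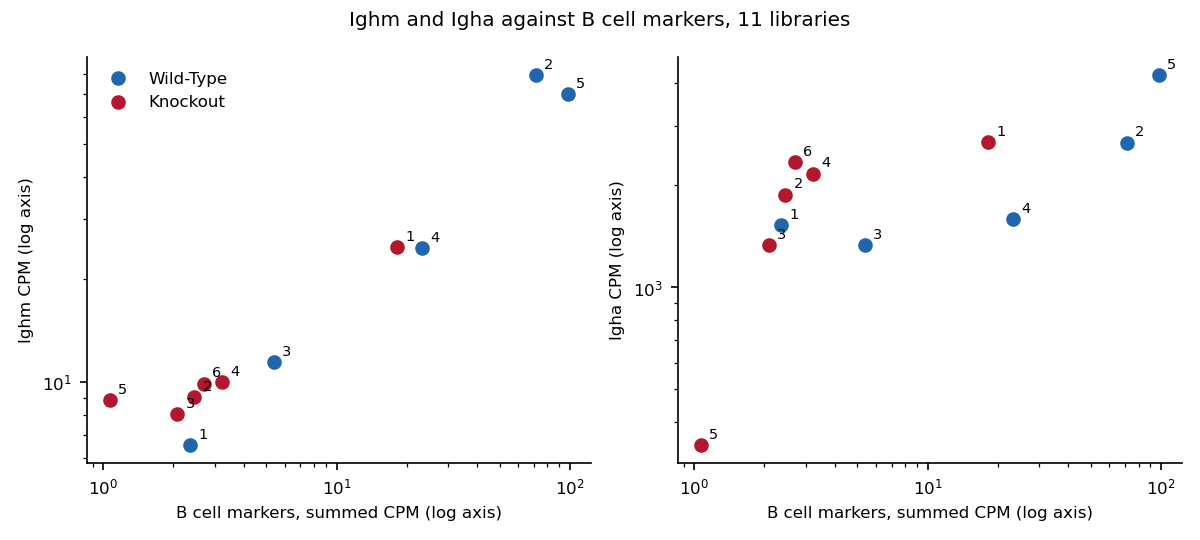
Ighm (left) and Igha (right) against the summed CPM of 12 B cell markers, all on log axes, with libraries labelled by replicate number. Ighm follows the markers from 1.06 to 98.0 CPM (r = 0.978). Igha is lowest in Knockout 5 (343 CPM) and highest in Wild-Type 5 (4221 CPM), the libraries with the fewest and the most markers. Its scatter between them is wider (r = 0.652).

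No class share passed an adjusted p of 0.05 between the genotypes. IgA was 98.2% ± 1.06 (SD, n = 6) of heavy chain constant TPM in Knockout and 96.8% ± 3.84 (n = 5) in Wild-Type (two-sided exact permutation test over 462 splits, p = 0.522, adjusted p = 0.866 over 8 measures). Wild-Type 2 had 90.0% IgA, and every other library had 96.4% to 99.3%. IgG made up 7.84% in Wild-Type 2 and 2.89% in Knockout 1, against 0.416% to 1.18% elsewhere. Its group means were 1.11% ± 0.90 in Knockout and 2.04% ± 3.25 in Wild-Type (exact permutation p = 0.701). IgM made up 0.626% ± 0.57 and 0.987% ± 0.59 (exact permutation p = 0.338). The highest Knockout share was 1.77% in Knockout 5, where Igha was low and Ighm, at 8.85 CPM, was not high. IgD made up 0.0127%, 0.316%, 0.0469%, 0.278% and 0.443% in Wild-Type 1 to 5 and between 0.00207% and 0.105% in Knockout libraries, so the groups overlapped. The means were 0.0313% ± 0.042 in Knockout and 0.219% ± 0.18 in Wild-Type (exact permutation p = 0.0325, adjusted p = 0.292 over 9 measures), in a test added after the data were seen. Without Wild-Type 2 and Wild-Type 5 the difference moved from -0.188 to -0.0812 percentage points (exact permutation p = 0.179). Kappa made up 94.6% of light chain constant TPM in both groups, with SDs of 2.33 in Knockout and 0.775 in Wild-Type (exact permutation p = 0.987).

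**Figure D4:**
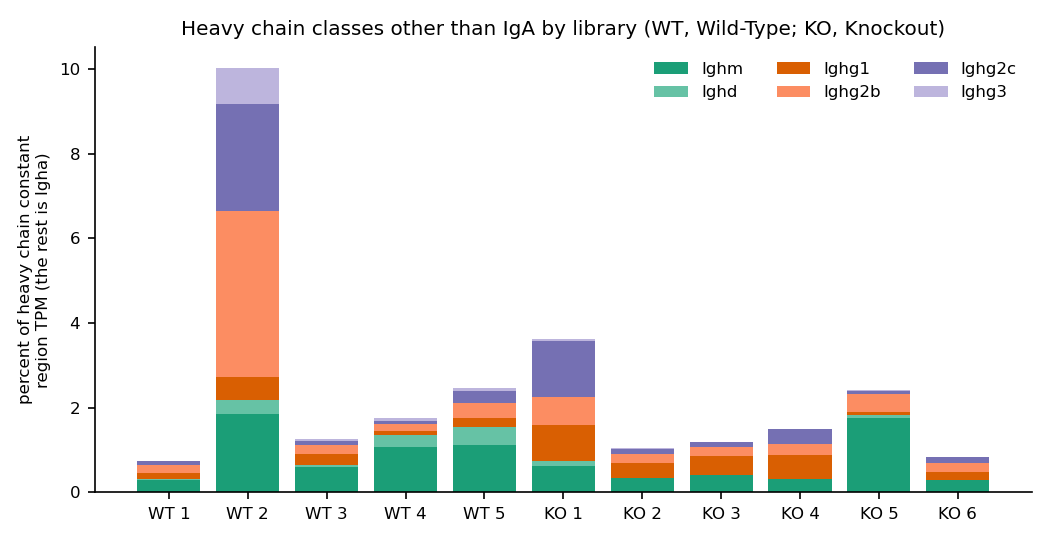
Percent of heavy chain constant region TPM held by each class other than IgA in the 5 Wild-Type and 6 Knockout libraries, stacked. IgG genes reach 7.84% in Wild-Type 2 and 2.89% in Knockout 1, and Igha makes up nearly all the rest.

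Within a class, most Igha RNA ended in the secreted form. The secreted share was 94.0% ± 0.58 in Knockout and 94.3% ± 0.41 in Wild-Type (exact permutation p = 0.541). For Ighm it was 47.0% ± 8.42 and 43.0% ± 9.54 (exact permutation p = 0.470), with the lowest shares in Wild-Type 5 (28.1%) and Knockout 6 (32.3%). Wild-Type 2, Wild-Type 4 and Knockout 1, high for B cell markers as Wild-Type 5 was, had 50.2%, 52.3% and 54.5%. The sequence ends printed above are what separates these forms. For Ighd the secreted share was 4.92%, 4.39% and 1.65% in Wild-Type 2, 4 and 5, which held 162, 105 and 395 Ighd reads, and 0% in Knockout 1 with 95, where a count of 0 allows a share of up to 3.16% (counting error only). The remaining libraries held 1 to 14 Ighd reads, and their shares are not given.

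Variable genes were used unevenly. Ighv1-81 was the most abundant Ighv gene in 5 of the 11 libraries and Igkv1-110 the most abundant Igkv gene in 5, and 6 other Ighv genes and 4 other Igkv genes led in the rest. Of the Ighv genes, Ighv1-81 (mean 16.3 CPM), Ighv1-26 (12.9) and Ighv3-6 (7.59) were highest, and of the Igkv genes Igkv1-110 (23.3), Igkv1-117 (19.5) and Igkv10-96 (17.2). Iglv1 led the lambda genes at 22.8 CPM, followed by Iglv2 at 1.55 and Iglv3 at 0.761 CPM. Fold changes of these genes were between -1.39 (Iglv2) and -0.033 (Ighv1-81), and the lowest adjusted p was 0.432, that of Ighv3-6. Iglv2 was at -0.63 without Wild-Type 2.

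In Wild-Type 4, Ighv3-6 held 15.1% of Ighv reads, against 1.83% to 5.02% in the other libraries, and Igkv5-43 held 20.8% of Igkv reads, against 0.800% to 5.27%. Ighv1-81 held 17.5% in Knockout 2 and 14.1% in Knockout 4, where Igkv1-110 (15.5%) and Igkv1-117 (15.1%) led the kappa genes. Ighv14-2 held 11.9% in Knockout 1, Ighv1-15 12.6% in Knockout 3 and Ighv8-12 12.6% in Knockout 5, the last from 887 Ighv reads. These libraries were picked out after their values were seen. Such a share says that reads of 1 gene are abundant in a library; it does not show a clone, since the tables hold no joined sequences.

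The effective number of V genes (the inverse Simpson index, which counts genes as if used equally) was 25.2 ± 8.48 for Ighv in Knockout and 29.2 ± 6.95 in Wild-Type (two-sided exact permutation p = 0.411, adjusted p = 0.866). For Igkv it was 28.1 ± 8.04 and 28.9 ± 7.88 (exact permutation p = 0.874, adjusted p = 0.987). The lowest Igkv value was 15.8 in Wild-Type 4, and the highest was 41.6 in Knockout 6, which also had the highest Ighv value (40.8). The overlap of V usage between pairs of libraries, the summed smaller percentage of each gene, had a median of 62.0% for the 25 pairs of equal genotype and 63.0% for the 30 of different genotype in Ighv, and 64.0% and 65.5% in Igkv. Pairs share libraries, and the difference was not tested.

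**Figure D5:**
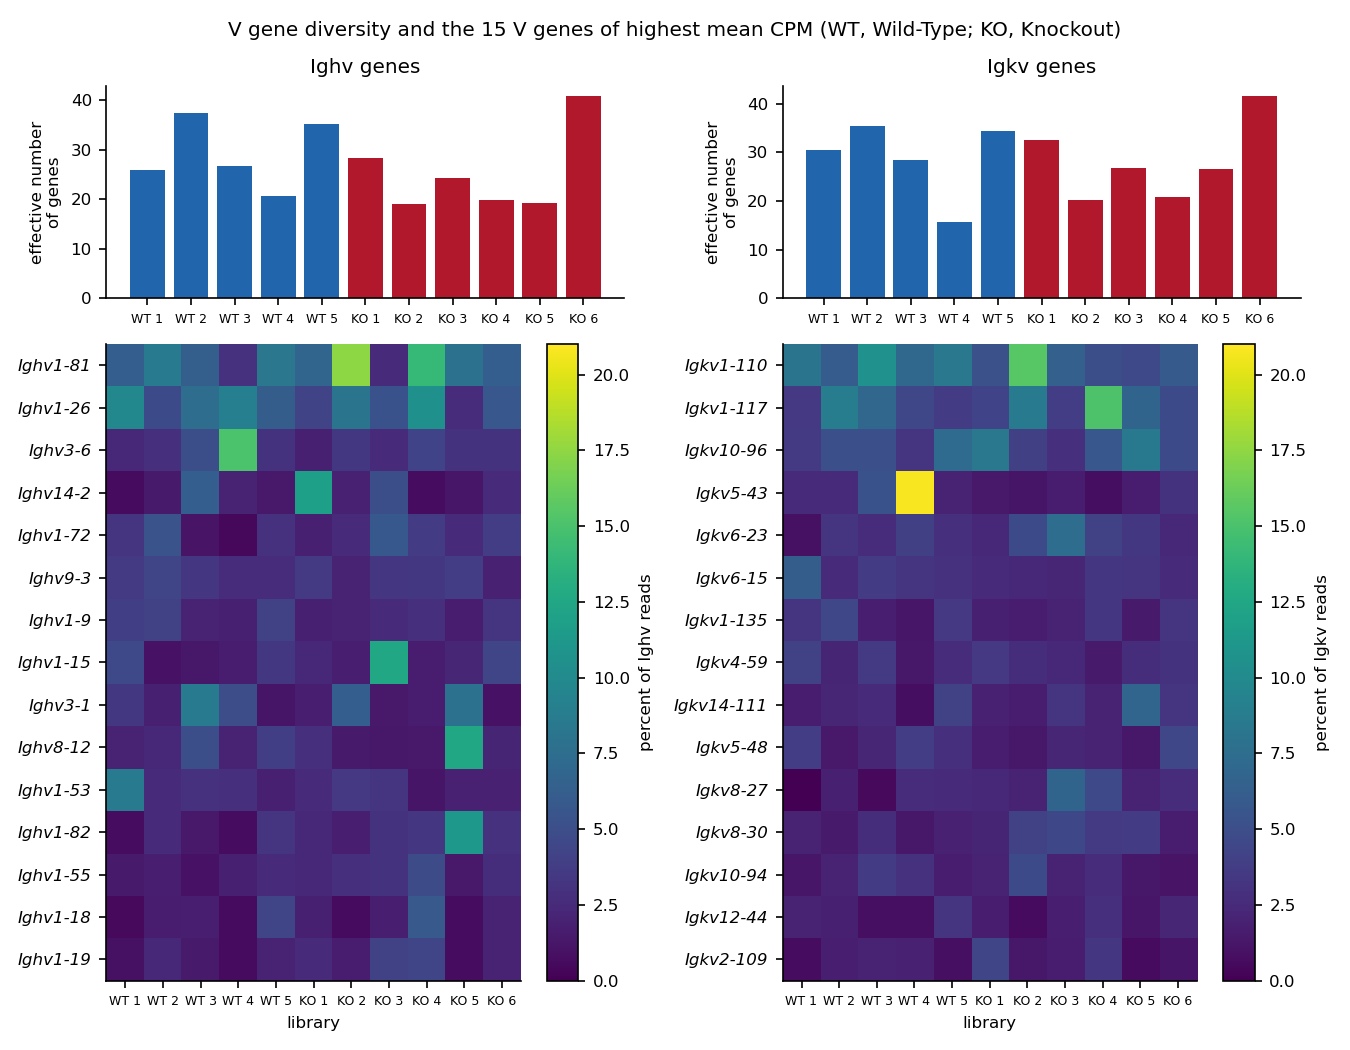
Effective number of Ighv (left) and Igkv (right) genes by library (bars, blue Wild-Type, red Knockout) above a heat map of the percent of reads of the 15 V genes with the highest mean CPM. Igkv5-43 in Wild-Type 4 is the brightest cell (20.8%), followed by Ighv1-81 in Knockout 2 (17.5%).

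The genes around this pathway were described by lists. Of 12 plasma cell factors 12 were tested, 10 lower, with 4 below and 0 above 0 at an unadjusted p under 0.05 and a median of -0.50; over all genes 51.7% lay lower, and 6.08% lay lower with such a p. Derl3, which helps misfolded protein leave the endoplasmic reticulum, had a log2 fold change of -0.60 ± 0.22 (adjusted p = 0.340, edgeR), and Tnfrsf13b (the receptor TACI) had -0.82 ± 0.33 (adjusted p = 0.358), which was -0.28 without Wild-Type 2 and Wild-Type 5. Of the 12 genes of IgA plasma cell homing 10 were tested, with 8 lower and a median of -0.17. Itgb7, an integrin chain of gut and mammary homing, was at -1.73 ± 0.63 (adjusted p = 0.338) and Cxcr4 at -1.14 ± 0.44 (adjusted p = 0.350). Without Wild-Type 5 they were at -0.99 and -0.63, and without Wild-Type 2 and Wild-Type 5 at -0.25 and -0.20. Itgb7 was highest in Wild-Type 5 and Wild-Type 2 (19.8 and 10.2 CPM), the libraries with the most B cell markers. The part of B cells in its fold change was not tested.

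Of the 20 folding and export genes 17 were tested, with 14 lower and a median of -0.10. Of the 17 genes of IgA class switching and survival 9 were tested, with 4 higher and 5 lower and a median of -0.034. Runx3, which acts in switching to IgA, had -0.56 ± 0.23 (adjusted p = 0.359), and Tgfbr1, a receptor chain for TGF-beta, had 0.41 ± 0.19 (adjusted p = 0.401). Of the 12 Fc receptors 7 passed the filter and 0 the adjusted threshold, and their direction is not counted, since a gene can pass through 1 group alone and Fcmr is also among the B cell markers. Fcmr, the IgM receptor of B cells, had -3.40 ± 1.26 (adjusted p = 0.343), with 0 reads in 1 library or more. Without Wild-Type 2 and Wild-Type 5, Runx3 was at -0.25, Tgfbr1 at 0.19 (0.25 without Wild-Type 2 alone) and Fcmr at -1.55. No gene of these lists passed the adjusted threshold in edgeR.

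On the epithelial side, the 16 regulators of Pigr were all tested, 11 higher and 5 lower, with a median of 0.085. Stat5a, a transducer of prolactin signalling, had 0.43 ± 0.19 (adjusted p = 0.379; 0.27 without Wild-Type 2 and Wild-Type 5), and Myd88 had 0.30 ± 0.10 (adjusted p = 0.313). Among 15 tested transcytosis genes Rab17, a vesicle protein of polarised epithelium, had the lowest p with a fold change of -0.70 ± 0.18 (adjusted p = 0.230 in edgeR, 0.0497 in DESeq2). Egfr was at 0.43 ± 0.12 (adjusted p = 0.269). The 8 luminal epithelium markers had a median of 0.31, their sums lying between 653 and 1034 CPM in Knockout libraries and between 521 and 955 CPM in Wild-Type libraries. Macrophage markers (8 tested, 3 higher and 5 lower) had a median of -0.025, the 3 tested germinal centre markers 0.033 and the 3 tested lymph node stroma markers -0.084, the last with Ccl21a at -3.66 ± 1.29 (adjusted p = 0.332, edgeR), or -1.45 without Wild-Type 2 and Wild-Type 5. Pigr, made by this epithelium, had 0.19, and the part of the epithelial share in it was not tested.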

How the data were processed

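Total RNA was made into directional libraries, per the labels' protocols, and quantified with Salmon 1.3.0 on GRCm38.p6, per the submitters' processing notes, which also list DESeq2 1.28.1. The deposited tables gave, per the file headers, the estimated count and the TPM of each of 58204 transcripts. Estimated counts were summed per gene with the GENCODE M21 annotation and rounded; 752 transcripts without a match held 0.195% to 0.265% of reads. The authors' deposited fold change table was not used.

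Genes were kept by filterByExpr and tested with edgeR 4.0.16 in R 4.3.3 (TMM, quasi-likelihood test, Benjamini-Hochberg adjustment, threshold 0.05) over all 12716 genes. The common biological coefficient of variation was 24.1%. The SE of a fold change is its size divided by the square root of the F statistic. Shares and V gene diversity were compared by exact permutation of libraries, and relations by 100000 permutations. The gene test, the permutation test and the diversity index were tested on simulated data. Named genes were every constant and transport gene, the 3 V genes of highest mean CPM in each family, any member past the threshold in either tool, and from each gene list the members past the threshold and the 2 with the smallest p. The members and lists were chosen with earlier results of these data known. One gene of the B cell marker list is not reported here and was left out of the sum. Alternatives were DESeq2 1.42.0, other scaling, no filter, transcript length offsets, the replicate number as a block and leaving out each library; leaving out Wild-Type 2 and Wild-Type 5 together and the test of the IgD share were added after seeing the data. Same-numbered libraries correlated between -0.22 and 0.19 in their deviations from the group means, so the numbers were not used as pairs.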

Additional observations from a re-analysis of the deposited data

Results flagged for a closer look

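Within the 6 Knockout and within the 5 Wild-Type libraries, a library far from the rest was looked for among 120 sets of values. About 1 in 20 (6) would be found by chance, and 13 were found. Many of the sets move together, as Igha and Jchain do, so the number given by chance is only a rough guide. The IgA share of heavy chain transcripts was 90.0% in Wild-Type 2, against 97.5% to 99.3% in the rest of its group. The IgG share was 7.84% in Wild-Type 2 (others 0.416% to 0.906%) and 2.89% in Knockout 1 (others 0.537% to 1.18%). The IgM share was 1.77% in Knockout 5, against 0.291% to 0.626%. Ighm was at 8.85 CPM in that library, within the range of the other Knockout libraries, so the share was high over a small amount of Igha. Knockout 5 also had the lowest Igha, 343 CPM against 1331 to 2690, and the lowest Jchain, 21.9 CPM against 93.4 to 218. Knockout 1 had 24.8 CPM of Ighm (others 8.06 to 10.01), 2.11 CPM of Ighd (others 0.0285 to 0.171), 0.111 CPM of Ighe (others 0 to 0.0285) and 1.51 CPM of Fcmr (others 0 to 0.0854). Ighv1-26 was at 27.5 CPM in Wild-Type 5, against 10.8 to 13.5. Tgfbr1 was at 2.09 CPM in Wild-Type 2, against 3.97 to 4.87, and Krt8 at 258 CPM in Wild-Type 4, against 128 to 148. Knockout 5 held the fewest immunoglobulin reads, 14216, and Igha itself made up 9346 of them. The low Igha and the low total are therefore not separate observations. In Knockout 1 the high values stand beside its summed B cell markers of 18.1 CPM, the highest of its group.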

How the results depend on the processing

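No member passed the threshold in edgeR under any alternative run, or in DESeq2. Over all genes, edgeR called 7, DESeq2 146, and the fit with the replicate number as a block 0; leaving out 1 library gave 0 to 28, and without Wild-Type 2 and Wild-Type 5 it was 3. Same-numbered libraries did not deviate together, and 1 of the 5 numbered Knockout libraries and 0 of the 5 Wild-Type libraries correlated best with their own number. With the block (replicate numbers 1 to 5), member fold changes had a median of -0.75. Counted over V and constant genes, the kappa share differed by 0.128 percentage points, against -0.0201.

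Leaving out 1 library turned these log2 fold changes or differences, given as lowest to highest: Igha -0.49 to 0.0087, Ighg1 -0.14 to 1.11, Ighg2b -2.85 to 0.066, Ighg2c -2.61 to 1.17, Jchain -0.56 to 0.016, Ighv1-81 -0.41 to 0.50, Igkv1-117 -0.59 to 0.41, Igkv10-96 -0.94 to 0.20, Iglv3 -0.96 to 0.65 and Madcam1 -0.24 to 0.19; the IgA share -0.213 to 2.11, IgG share -1.34 to 0.519 and kappa share -0.533 to 0.760 percentage points, and the effective number of Igkv genes -4.11 to 0.800.

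Without Wild-Type 2 and Wild-Type 5 the fold changes became 0.27 for Igha, 1.10 for Ighg2b, 2.89 for Ighg2c, 0.24 for Igkc, 0.055 for Iglc1, 0.66 for Iglc2, 0.37 for Jchain, 0.50 for Mzb1, 1.16 for Ighv1-81, 0.054 for Igkv1-110, 0.81 for Igkv1-117, 0.81 for Igkv10-96, 0.026 for Iglv1, 0.43 for Iglv2, 1.45 for Iglv3, 0.25 for Trac and 0.17 for Madcam1. With transcript length offsets Fas was at 0.049 and Madcam1 at 0.078. The cause was not tested.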
